A study of Homo sapiens with 12 samples.

Results

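Origin licensing is the step in late mitosis and G1 that prepares chromosomes for a single round of DNA replication. The origin recognition complex (ORC) binds DNA, CDC6 joins it, and CDT1 brings in the ring of MCM2, MCM3, MCM4, MCM5, MCM6 and MCM7, which stays on DNA as an inactive helicase until S phase. Several of these genes are textbook targets of E2F transcription factors, and MCM proteins are widely used as markers of proliferating cells. The 10 genes described here are MCM2 to MCM7, CDC6, CDT1, and the ORC subunits ORC1 and ORC6. They were picked by symbol from the 14828 genes of the expression table, and all 10 were present and were among the 14624 genes tested.

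The cells were 22Rv1, a human prostate cancer cell line, which carried a lentiviral pTRIPZ vector with a doxycycline-inducible short hairpin RNA. One hairpin was nontargeting (shNT) and the other two were aimed at CENPA, the centromeric histone H3 variant (shCENPA1 and shCENPA2). All 3 groups received doxycycline at 2 µg/ml for 72 h, so the controls carried both the vector and the drug, and each line was a selected pool of transduced cells. Polyadenylated RNA was sequenced from 2 libraries per hairpin, and each library was run in lanes 7 and 8. The labels number the 4 runs of a hairpin as replicates, but lanes of a library differed little more than sampling noise (chi-square per gene 1.23 to 1.31, where noise alone gives 1) and libraries of a hairpin differed far more (26.47 to 80.04), so lanes were averaged and n = 2 libraries per group. The sources used here do not say whether the libraries came from separate cultures, so p-values measure the spread between these libraries, which may be technical.

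Expression is given as log2 RPKM, the log2 of reads scaled to the length of the gene and the size of the library, which allows levels to be compared between genes. Libraries held 79172294 to 133074655 reads on genes, and the 10 licensing genes had from 332 reads (ORC1, in a shCENPA2 library) to 29208 reads (MCM7, in a shNT library). Differences were tested with limma over all 14624 genes and called at a Benjamini-Hochberg adjusted p below 0.05. CENPA itself was at 2.46 and 2.18 log2 RPKM in shNT, 0.50 and 0.58 with shCENPA1, and -0.47 and -0.41 with shCENPA2. Its log2 fold change against shNT was -1.78 ± 0.16 (SE, limma adjusted p = 0.000287) with shCENPA1 and -2.76 ± 0.16 (adjusted p = 1.13e-05) with shCENPA2.

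All 10 licensing genes were lower with both hairpins, and in each of them the 4 knockdown libraries lay below both shNT libraries. Of all genes tested, 20.5% had their libraries ordered in that way. With shCENPA1, 9 of the 10 were called lower and CDT1 was not, against 4.45% of all genes tested called lower, and with shCENPA2 all 10 were called lower, against 10.5%. The median log2 fold change of the 10 was -1.01 with shCENPA1 and -1.23 with shCENPA2, beside 0.00 and 0.01 over all genes tested. A fall past 2-fold (log2 fold change under -1 and called) was seen for 5 with shCENPA1, namely MCM4, MCM5, CDC6, ORC1 and ORC6, where 1.83% of all genes reached it. With shCENPA2 it was seen for 8, all but MCM7 and CDT1, where 4.45% of all genes reached it. The same rule applied to both hairpins at once gave 9 of 10 called lower with both, against 4.13% of all genes tested. Both comparisons used the same shNT libraries, so they are not independent of each other. In bulk RNA, fewer cells of a kind and less RNA per cell cannot be told apart.

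**Figure D1:**
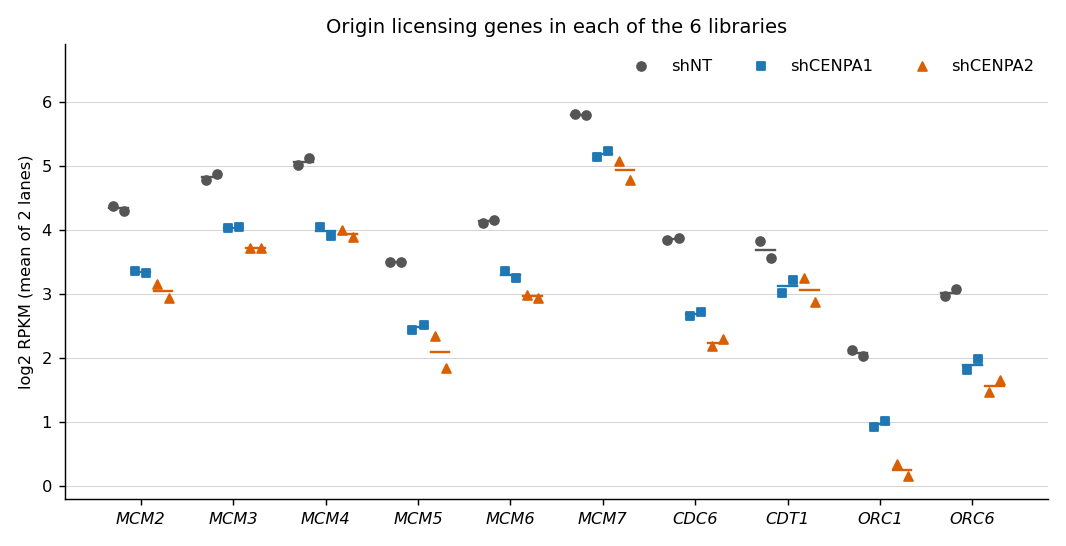
Level of each licensing gene in the 6 libraries (log2 RPKM, mean of 2 lanes; 1 symbol per library, short line for the group mean). For all 10 genes the shCENPA1 and shCENPA2 symbols sit below both shNT symbols, and MCM7 is the highest and ORC1 the lowest gene in every library.

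ORC1 is the ATPase subunit of ORC that varies over the cell cycle, and it sits at chr1:52372829-52404423 on the minus strand (GRCh38). It was at 2.12 and 2.03 log2 RPKM in shNT, 0.93 and 1.01 with shCENPA1, and 0.35 and 0.15 with shCENPA2. The 3 groups did not overlap. Its log2 fold change was -1.11 ± 0.15 (SE, limma adjusted p = 0.00192), or 53.5% lower, with shCENPA1. With shCENPA2 it was -1.83 ± 0.15 (adjusted p = 4.81e-05), or 71.8% lower, which was the lowest value among the 10 genes in that comparison. ORC6, the small subunit that recruits CDT1 and the helicase ring in budding yeast, lies at chr16:46689643-46698394 on the plus strand. It measured 2.96 and 3.08 log2 RPKM in shNT, 1.81 and 1.98 with shCENPA1, and 1.47 and 1.65 with shCENPA2. Those groups did not overlap either, and the log2 fold changes were -1.12 ± 0.13 (adjusted p = 0.00081) and -1.46 ± 0.13 (adjusted p = 7.3e-05).

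The other subunits of the complex had smaller log2 fold changes. ORC2, ORC3, ORC4 and ORC5, which make up the rest of the ring around DNA, had log2 fold changes of -0.18, -0.11, 0.02 and -0.13 with shCENPA1, and of -0.19, -0.12, 0.12 and -0.24 with shCENPA2. None of the 4 was called by limma with either hairpin, none had an unadjusted p under 0.05, and none was called by limma's voom on read counts. Of all genes tested, 7.14% and 18.5% were called in either direction with shCENPA1 and shCENPA2, and 22.0% and 32.3% had an unadjusted p under 0.05, so a count of 0 among 4 genes is near the background and does not set these subunits apart. The 95% confidence intervals reached down to -0.49 for ORC5 with shCENPA2, so a decrease of up to that size would lie within the interval. In 3 of these 4 subunits, all but ORC4, the 4 knockdown libraries lay below both shNT libraries. Of all genes tested, 20.5% had that order. Within each library, the mean log2 RPKM of ORC1 and ORC6 minus that of ORC2 to ORC5 was -0.50 in each shNT library, -1.59 and -1.44 with shCENPA1, and -1.95 and -2.12 with shCENPA2. All 4 knockdown libraries were below both shNT libraries, by 1.28 on average (two-sided exact permutation p = 0.067, the smallest that 2 against 4 libraries can give, and 0.075 after adjustment over the 9 within-library ratios computed). Like the other ratios, this one was chosen after the values were seen and takes the libraries of both hairpins together. Its p-value is therefore a description and not a test.

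**Figure D2:**
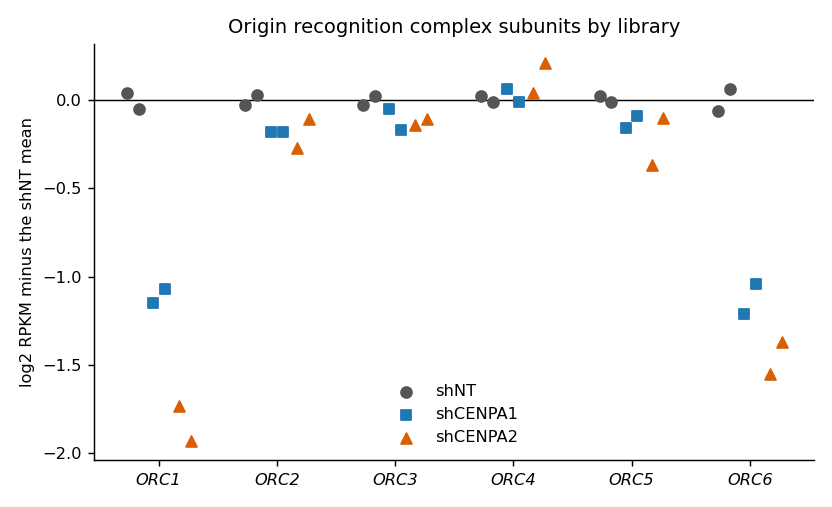
ORC subunits in each library, as log2 RPKM minus the mean of the shNT libraries (1 symbol per library). ORC1 and ORC6 fall to between about -1 and -2 in the knockdown libraries, whereas ORC2 to ORC5 stay closer to the shNT level marked by the line at 0. For ORC2, ORC3 and ORC5 the knockdown symbols still lie below both shNT symbols.

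CDC6 is the ATPase that completes the loader, at chr17:40287879-40304657 on the plus strand. Its levels were 3.84 and 3.87 log2 RPKM in shNT, 2.66 and 2.72 with shCENPA1, and 2.19 and 2.29 with shCENPA2, again with no overlap of the 3 groups. The log2 fold change was -1.17 ± 0.10 (SE, limma adjusted p = 0.000247) with shCENPA1 and -1.62 ± 0.10 (adjusted p = 1.46e-05) with shCENPA2, or 55.5% and 67.4% lower. CDT1, the partner that escorts the helicase ring to origins, lies at chr16:88803789-88809258 on the plus strand. It was at 3.82 and 3.56 log2 RPKM in shNT, 3.02 and 3.22 with shCENPA1, and 3.25 and 2.88 with shCENPA2. The knockdown libraries of both hairpins overlapped, and the shNT libraries were themselves 0.26 apart, the widest gap of any of the 10 genes in that group.

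The CDT1 log2 fold change was -0.57 ± 0.15 (SE, limma adjusted p = 0.0528) with shCENPA1 and -0.62 ± 0.15 (adjusted p = 0.018) with shCENPA2. These were the smallest decreases of the 10 genes, and the CDT1 calls were the least stable of them. With shCENPA1, CDT1 passed the threshold in voom on read counts (adjusted p = 0.0273), and over all alternatives its adjusted p ran from 0.00794 to 0.275. With shCENPA2 the call was lost without shNT library 1 (adjusted p = 0.12) and without shCENPA2 library 2 (adjusted p = 0.0845). CDC6 minus CDT1 in the same library was 0.02 and 0.32 in shNT, -0.36 and -0.50 with shCENPA1, and -1.06 and -0.59 with shCENPA2. All 4 knockdown libraries were below both shNT libraries for that ratio (difference -0.80, two-sided exact permutation p = 0.067, adjusted p = 0.075). That p-value is the smallest these libraries can give, and the ratio was chosen after the values were seen. It is therefore a description and not a test.

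The helicase genes fell together, by 35% (MCM7) to 52.6% (MCM4) with shCENPA1 and by 45.3% (MCM7) to 62.1% (MCM5) with shCENPA2. MCM2, at chr3:127598410-127622436 on the plus strand, was at 4.37 and 4.30 log2 RPKM in shNT, 3.36 and 3.32 with shCENPA1, and 3.15 and 2.93 with shCENPA2. Its log2 fold change of -1.0 ± 0.10 (SE, limma adjusted p = 0.000551) with shCENPA1 lay just short of the 2-fold threshold, and that with shCENPA2 was -1.3 ± 0.10 (adjusted p = 4.61e-05). MCM6, at chr2:135839626-135876443 on the minus strand, was at 4.11 and 4.16 in shNT, 3.35 and 3.24 with shCENPA1, and 2.99 and 2.94 with shCENPA2. MCM2 and MCM6 were each ordered shNT, shCENPA1, shCENPA2 with no overlap between groups, as were ORC1, ORC6, CDC6, MCM3, MCM5 and MCM7. The share of all genes tested with that order was not computed, so the order is a description. The MCM6 log2 fold changes were -0.84 ± 0.09 (adjusted p = 0.00081) and -1.17 ± 0.09 (adjusted p = 4.87e-05).

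MCM4, on chromosome 8, was at 5.01 and 5.12 log2 RPKM in shNT, 4.05 and 3.91 with shCENPA1, and 3.99 and 3.89 with shCENPA2. The libraries of both CENPA hairpins overlapped, and its log2 fold changes were close to each other at -1.08 ± 0.09 (SE, limma adjusted p = 0.000265) and -1.12 ± 0.09 (adjusted p = 6.51e-05). MCM3, at chr6:52264014-52284881 on the minus strand, had replicates that were nearly the same, at 4.78 and 4.87 in shNT, 4.03 and 4.04 with shCENPA1, and 3.72 and 3.71 with shCENPA2. It fell by 0.79 and 1.11 on the log2 scale (SE 0.09, adjusted p = 0.000722 and 4.43e-05).

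MCM5, at chr22:35400134-35425431 on the plus strand, was at 3.50 log2 RPKM in each shNT library, 2.44 and 2.52 with shCENPA1, and 2.35 and 1.85 with shCENPA2. Library 2 of shCENPA2 was the lowest, and the gap of 0.50 between the shCENPA2 libraries was the widest within any group for the 10 genes. The MCM5 log2 fold changes were -1.02 ± 0.15 (SE, limma adjusted p = 0.00379) and -1.40 ± 0.15 (adjusted p = 0.000288). MCM7, at chr7:100092233-100101940 on the minus strand, was the most abundant of the 10, at 5.80 and 5.79 in shNT, 5.13 and 5.23 with shCENPA1, and 5.08 and 4.78 with shCENPA2. Its log2 fold changes were -0.62 ± 0.11 (adjusted p = 0.00882) and -0.87 ± 0.11 (adjusted p = 0.000633). With shCENPA1, the calls of MCM5 and MCM7 were lost when either shCENPA1 library was left out. The adjusted p was then 0.0589 and 0.0595 for MCM5 and 0.0776 and 0.0685 for MCM7.

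**Figure D3:**
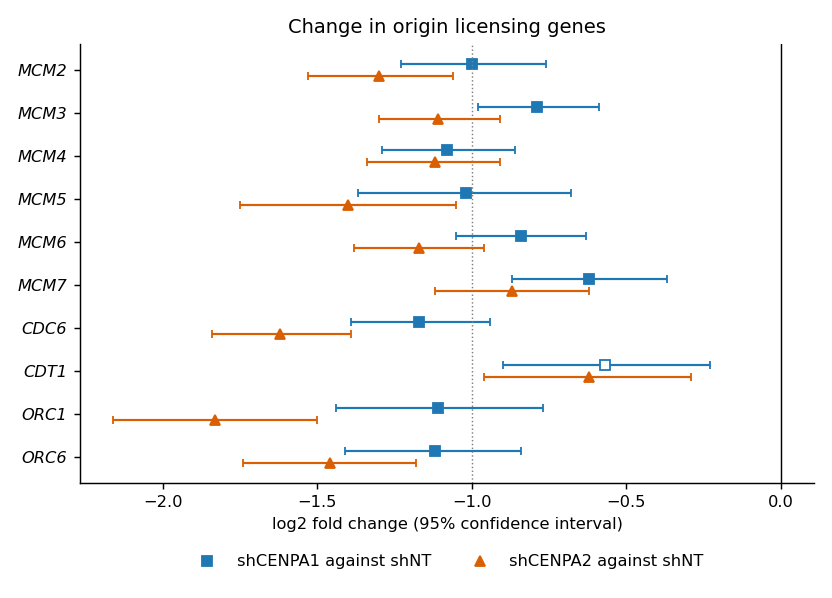
Log2 fold change against shNT of each licensing gene with shCENPA1 (squares) and shCENPA2 (triangles), with 95% confidence intervals from limma. Filled symbols have an adjusted p below 0.05 and the dotted line marks a 2-fold decrease. Every interval lies below 0, the only open symbol is CDT1 with shCENPA1, and ORC1 with shCENPA2 is farthest to the left.

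Although the 6 MCM proteins form a ring with 1 copy of each, their transcripts were far from equal. Summed over the 6 genes, RPKM was 164.6 and 168.3 in shNT, 93.75 and 94.16 with shCENPA1, and 84.78 and 74.28 with shCENPA2. MCM7 made up 33.9% and 32.9% of that sum in shNT, 37.3% and 39.8% with shCENPA1, and 39.9% and 36.9% with shCENPA2. MCM5 made up 6.9% and 6.7% in shNT and 4.9% to 6.1% in the knockdown libraries. The highest of the 6 levels was 4.92 and 4.90 times the lowest in shNT, and 6.46 to 7.59 times in the knockdown libraries. These shares rest on RPKM, which depends on the gene lengths used for the table and on how reads of overlapping genes were counted.

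In shNT the order of levels was MCM7, MCM4, MCM3, MCM2, MCM6, CDC6, CDT1, MCM5, ORC6 and ORC1, from a mean of 5.80 down to 2.08 log2 RPKM, and the libraries of each gene lay above those of the next. With shCENPA1 the same genes held the ends of the order, but MCM3 and MCM4 overlapped, as did MCM2 and MCM6. With shCENPA2, CDT1 took the fourth place at 3.06 log2 RPKM, and its libraries overlapped with those of MCM2, which in turn overlapped with MCM6. CDC6 and MCM5 overlapped there as well.

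Directly compared, shCENPA2 gave lower means than shCENPA1 for all 10 genes, by 0.05 (MCM4) to 0.72 (ORC1) on the log2 scale with a median of -0.32. None of the 10 was called in this comparison, while 1.42% of all genes were called in either direction. Of the 10, 8 had an unadjusted p under 0.05, against 13.3% of all genes tested, and voom on read counts called none. ORC1 came nearest, at -0.72 ± 0.15 (SE, limma adjusted p = 0.0511, from 0.0409 to 0.312 over the alternatives), followed by CDC6 at -0.45 ± 0.10 (adjusted p = 0.0733). For MCM4 the difference was -0.05 (95% confidence interval -0.26 to 0.17) and for CDT1 it was -0.06 (-0.39 to 0.28). Without shCENPA2 library 1, ORC1 and MCM5 were called, at -0.82 (adjusted p = 0.0409) and -0.63 (adjusted p = 0.0402). With lanes kept as samples with an estimated correlation, 4 were called.

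The sequences upstream of these genes are shown because the genes fell together, and because some share their promoter region with a neighbour. RefSeq promoter windows (GRCh38.p14) were at hand for 8 of the 10 genes, all but MCM4 and MCM5, and the 250 bases before the start were searched on both strands for the E2F consensus (TTTCCCGC, TTTCGCGC, TTTGCCGC or TTTGGCGC), for CCAAT and for the CHR element (TTTGAA). An E2F match was found in 4 of the 8 (CDT1, MCM3, MCM6 and MCM7), and in 4.4% of the promoters of 10148 tested genes. CCAAT was found in 6 of the 8, and in 35.1% of those promoters. TTTGAA was found in none of the 8, and in 8.1%. A match describes the letters only. The 160 bases before the start follow for the genes with a start at the edge of the annotated gene, 5′ to 3′ on the gene's strand, with E2F and CCAAT matches in capitals (CCAAT reads ATTGG on the other strand, and overlapping E2F matches on both strands run together in MCM6). They lie at chr2:135876444-135876603 (minus strand) for MCM6, chr16:88803629-88803788 (plus) for CDT1, chr17:40287719-40287878 (plus) for CDC6 and chr1:52404424-52404583 (minus) for ORC1.
MCM6: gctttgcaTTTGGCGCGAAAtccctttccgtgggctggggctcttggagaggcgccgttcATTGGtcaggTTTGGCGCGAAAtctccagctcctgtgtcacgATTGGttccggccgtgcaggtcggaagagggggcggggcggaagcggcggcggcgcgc
CDT1: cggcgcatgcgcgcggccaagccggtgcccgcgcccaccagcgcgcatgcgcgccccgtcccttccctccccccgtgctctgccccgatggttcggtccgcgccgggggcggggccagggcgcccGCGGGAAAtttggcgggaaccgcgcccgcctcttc
CDC6: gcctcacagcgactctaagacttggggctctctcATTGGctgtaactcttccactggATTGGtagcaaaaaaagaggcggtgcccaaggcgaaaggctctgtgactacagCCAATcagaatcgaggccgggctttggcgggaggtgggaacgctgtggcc
ORC1: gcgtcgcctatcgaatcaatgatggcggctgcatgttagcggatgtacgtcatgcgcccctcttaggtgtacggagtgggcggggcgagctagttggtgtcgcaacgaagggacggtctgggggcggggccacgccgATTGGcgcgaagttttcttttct
MCM6 holds a pair of the E2F runs, the nearer of them ending at position -79 from the start, and CDT1 holds 1 match that begins at position -35. CDC6 and ORC1 have CCAAT matches and no match to these E2F letters in the window. Only exact matches to the listed letters were sought, so the lack of a match does not show that an E2F site is absent.

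Of the 10 genes, 4 start head to head with a protein-coding gene on the opposite strand within 1000 bp, in GENCODE 44. The starts are 179 bp apart for ORC1 and the splicing factor gene PRPF38A, so that the ORC1 sequence above lies between them, 246 bp for MCM7 and the adaptor complex gene AP4M1, 481 bp for ORC6 and the retromer gene VPS35, and 805 bp for MCM4 and PRKDC, which encodes the catalytic subunit of DNA-dependent protein kinase. None of these neighbours was called with either hairpin by limma or by voom, and 1 of the 4, PRKDC, had an unadjusted p under 0.05 in each comparison. Beside the shares over all genes tested (7.14% and 18.5% called, 22.0% and 32.3% with an unadjusted p under 0.05), these counts are near the background. For PRPF38A and PRKDC the 4 knockdown libraries lay below both shNT libraries, which was not so for AP4M1 and VPS35. That order was found in 20.5% of all genes tested. The log2 fold changes with shCENPA1 and shCENPA2 were -0.10 and -0.16 for PRPF38A, 0.20 and 0.05 for AP4M1, -0.17 and -0.08 for VPS35, and -0.35 and -0.34 for PRKDC (adjusted p = 0.107 and 0.0704).

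The level of a licensing gene minus that of its neighbour separated the groups in all 4 pairs. ORC1 minus PRPF38A was -2.17 and -2.25 log2 in shNT and -3.17 to -4.02 in the knockdown libraries. ORC6 minus VPS35 was -1.75 and -1.69 in shNT and -2.53 to -3.11 in the knockdowns. MCM7 minus AP4M1 was 3.38 and 3.57 in shNT and 2.51 to 2.67 in the knockdowns, and MCM4 minus PRKDC was 0.56 and 0.65, then -0.24 to -0.02. The mean differences were -1.34, -1.16, -0.87 and -0.76, and each pair had all 4 knockdown libraries below both shNT libraries (two-sided exact permutation p = 0.067 for each, adjusted p = 0.075). The pairs were chosen after the values were seen, and the licensing genes alone already separated the groups. These p-values are therefore a description and not a test of the pairs. MCM7 and AP4M1 share 392 exon bases on opposite strands, and whether reads were counted by strand is not given in the sources used here, so reads of this pair may be mixed. The same limit holds for MCM2, which shares 1113 exon bases with a long noncoding RNA gene on the opposite strand. That gene was not in the expression table.

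**Figure D4:**
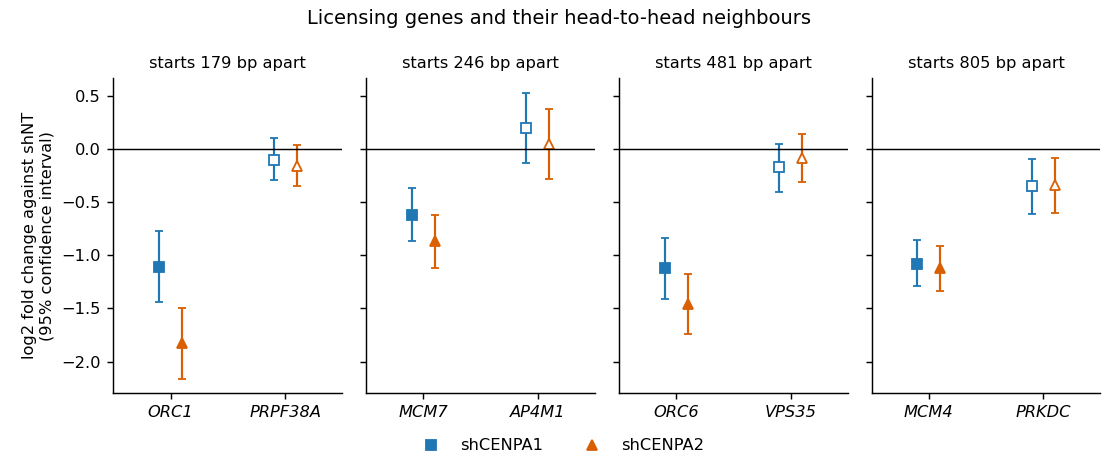
Log2 fold change against shNT, with 95% confidence intervals from limma, of 4 licensing genes and the gene that starts head to head with each (squares shCENPA1, triangles shCENPA2; filled symbols have an adjusted p below 0.05). In each panel the licensing gene on the left is lower than its neighbour on the right, and no neighbour has a filled symbol.

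Regulators of licensing were mixed. Of 8 regulators and partners, 3 were called lower with shCENPA1 and 4 with shCENPA2, against 4.45% and 10.5% of all genes tested. None of the 8 was called higher, against 2.69% and 8.05%. DTL, the substrate receptor that targets CDT1 for destruction in S phase, was at -1.3 ± 0.12 (SE, limma adjusted p = 0.00034) and -1.71 ± 0.12 (adjusted p = 3e-05). GMNN, which encodes the CDT1 inhibitor geminin, was at -0.63 (adjusted p = 0.00382) and -0.81 (adjusted p = 0.000404), and SKP2, a further CDT1 ubiquitin ligase subunit, at -0.57 (adjusted p = 0.00647) and -0.76 (adjusted p = 0.000572). MCMBP, which binds MCM proteins, was called with shCENPA2 (-0.40, adjusted p = 0.0101) and not with shCENPA1 (-0.26, adjusted p = 0.111). The ORC-associated gene LRWD1 was at 0.36 and 0.30 (adjusted p = 0.118 and 0.119). KAT7, CUL4A and DDB1 lay between -0.08 and 0.08 in both comparisons and were not called.

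CDT1 and its inhibitor were both lower, and their ratio did not separate the groups. CDT1 minus GMNN was -0.68 and -0.93 log2 in shNT, -0.76 and -0.73 with shCENPA1, and -0.46 and -0.77 with shCENPA2 (difference 0.13, two-sided exact permutation p = 0.53, adjusted p = 0.53). The mean of MCM2 to MCM7 minus MCMBP was 0.06 and 0.11 in shNT and -0.55 to -0.80 in the knockdown libraries (difference -0.70, two-sided exact permutation p = 0.067, adjusted p = 0.075). MCM8 and MCM9, relatives that act in homologous recombination and not in licensing, differed from each other. MCM8 was at -0.97 ± 0.13 (SE, limma adjusted p = 0.00201) and -0.91 ± 0.13 (adjusted p = 0.00134), and MCM9 at -0.13 and 0.00 (adjusted p = 0.67 and 0.997). MCM8 minus MCM9 was 1.77 and 1.82 in shNT and 0.79 to 0.97 in the knockdown libraries (difference -0.88, two-sided exact permutation p = 0.067, adjusted p = 0.075). The ratios in this paragraph were also chosen after the values were seen, so their p-values are a description and not a test.

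Genes that turn the loaded ring into an active helicase were lower as well. Of 14 origin firing genes, 11 were called lower with shCENPA1 and 14 with shCENPA2, against 4.45% and 10.5% of all genes tested, at medians of -0.77 and -1.12. The lowest with shCENPA2 were TICRR (-1.35 and -1.79, limma adjusted p = 0.00361 and 0.000328), which loads CDC45, and MCM10 (-1.41 and -1.68, adjusted p = 0.00034 and 4.61e-05). The highest were TOPBP1 (-0.65 and -0.68, adjusted p = 0.00375 and 0.00126) and DONSON (-0.61 and -0.46, adjusted p = 0.0194 and 0.0332). Of 16 other G1/S genes, 14 were called lower with each hairpin (medians -0.87 and -1.19), with the ribonucleotide reductase subunit RRM2 at -1.25 and -1.71 (adjusted p = 0.000103 and 6.3e-06) and the thymidylate synthase gene TYMS at -1.11 and -1.68 (adjusted p = 0.000677 and 2.69e-05). Cyclin E1, CCNE1, was at -0.13 and 0.17 (adjusted p = 0.674 and 0.505), and UNG at -0.29 and -0.26 (adjusted p = 0.0771 and 0.063).

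Of 12 E2F and pocket protein genes, 4 were called lower with shCENPA1 and 5 with shCENPA2, against 4.45% and 10.5% of all genes tested, and their medians were -0.26 with each hairpin. E2F8, a repressor of the family, was at -1.53 and -1.88 (limma adjusted p = 0.000696 and 8.21e-05). The activator gene E2F2, at a mean of only 0.55 RPKM in shNT, was at -1.01 and -1.73 (adjusted p = 0.124 and 0.00779). E2F1, at a mean of 19.42 RPKM in shNT, was at -1.05 and -1.41 (adjusted p = 0.00188 and 0.000155), and E2F3 at -0.26 and -0.07 (adjusted p = 0.219 and 0.725). E2F4 and E2F5, which act mainly with pocket proteins in repression, lay between -0.04 and 0.18 and were not called. All 16 G2/M genes were called lower with both hairpins, at medians of -1.25 and -1.65, from NUSAP1 (-1.35 and -1.76, adjusted p = 9.21e-05 and 6.3e-06) and AURKB (-1.24 and -1.75, adjusted p = 0.000545 and 3.13e-05) to CCNB1 (-1.11 and -1.40, adjusted p = 0.000194 and 1.75e-05) and AURKA (-0.89 and -1.02, adjusted p = 0.00081 and 0.000149). Over the 72 genes of these lists, 49 were called with both hairpins, each of them lower, against 4.13% of all genes tested called lower with both. The fall of G2/M genes moved with that of the licensing genes in every knockdown library, and its part in their values was not tested.

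**Figure D5:**
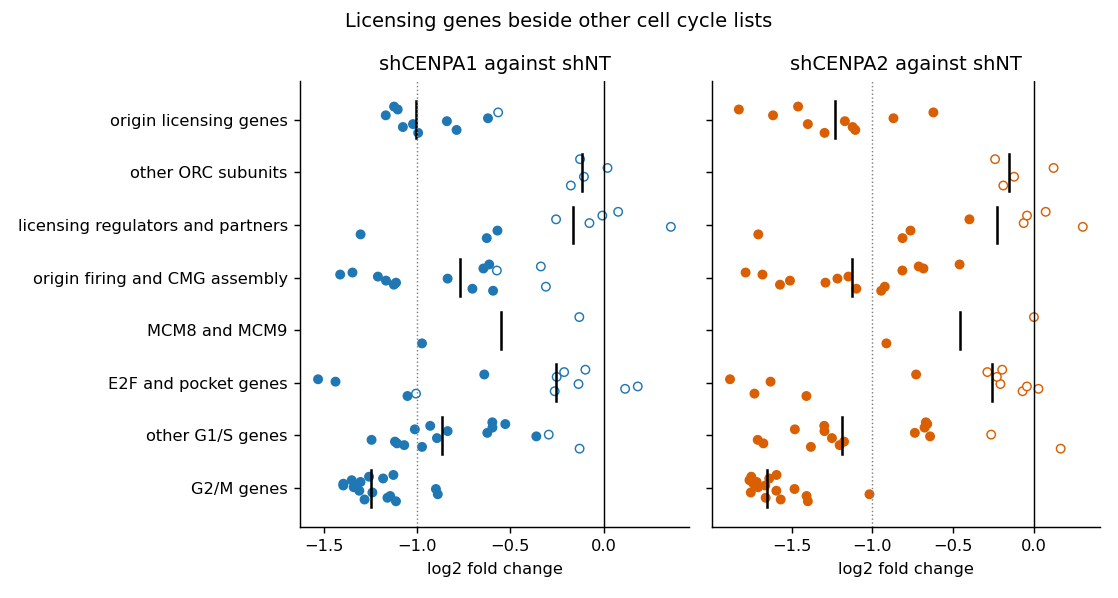
Log2 fold change against shNT of the licensing genes and of 7 other gene lists (1 symbol per gene, filled where the adjusted p is below 0.05; black bars are list medians and the dotted line marks a 2-fold decrease). The licensing genes have medians of -1.01 and -1.23, between the G2/M genes at -1.25 and -1.65 and the remaining ORC subunits at -0.12 and -0.16.

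The genes whose pattern was most like the mean of the 10 were found by the root mean square distance, over the 6 libraries, between centred log2 RPKM values. The nearest 8 outside the set were RFC4 (0.030), KIF18A (0.048), RFC3 (0.055), GINS3 (0.057), LIG1 (0.059), ARHGEF39 (0.066), SPATA13 (0.067) and FEN1 (0.070). Among the 10 themselves the distance ran from 0.045 for MCM2 to 0.280 for CDT1. These 8 were chosen for their pattern, so their changes are a description. The log2 fold changes of RFC4, for example, were -1.0 and -1.3.

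Markers of prostate luminal cells were present in all libraries, with summed RPKM over 9 genes of 831 to 871 in shNT, 779 to 818 with shCENPA1 and 781 to 793 with shCENPA2. Of these, 2 were called lower with shCENPA1, and 6 lower and 1 higher with shCENPA2. Over all genes tested, 4.45% were called lower with shCENPA1, and 10.5% lower and 8.05% higher with shCENPA2. HOXB13 was at 0.34 and 0.47 (limma adjusted p = 0.104 and 0.0164), KRT8 at -0.08 in both, KLK2 at -0.47 and -1.05 (adjusted p = 0.25 and 0.0103) and KLK3 at -0.77 and -1.64 (adjusted p = 0.0972 and 0.0016). Of 12 markers of basal, stromal, endothelial and immune cells, only COL1A1 and DCN were present in the expression table, and the other 10 were not. Their summed RPKM was 1.09 to 1.2 in shNT, 1.5 to 1.6 with shCENPA1 and 1.3 to 1.63 with shCENPA2. DCN was low throughout, at a mean of 0.12 RPKM in shNT, 0.46 with shCENPA1 and 0.34 with shCENPA2. DCN rose by 1.93 and 1.48 on the log2 scale (adjusted p = 0.00271 and 0.0053), and its part in the values of the licensing genes was not tested.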

How the data were processed

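The deposited table held log2 RPKM values per gene, which the authors made from paired-end stranded mRNA reads with Trim Galore, STAR (hg38), HTSeq and edgeR (versions not given in the sources used here). Both lanes of a library were averaged (n = 2 libraries per group). Whole reads could be recovered for 100.0% of values (within 1e-05 reads), which gave the depth and a voom alternative. limma (3.58.1, R 4.3.3) was fitted to the 14624 genes that averaged -3 log2 RPKM or more, with all 3 groups, no covariate and a trend in the variance, and the code was tested on simulated data. Within-library ratios were given exact permutation p-values, as a description. The genes described and the gene lists were chosen with earlier results of these data known. Named genes were the 10 members, CENPA, all genes of the 3 shorter lists, the 2 lowest and 2 highest with shCENPA2 of each longer list, and the 8 nearest in pattern. E2F1 and E2F3 were added beside E2F2. Neighbouring genes and ratios were chosen after the values were seen. Positions are from GENCODE 44, which held 88.1% of the symbols. The alternatives were single lanes, lanes with an estimated correlation, a replicate block, other filters, 0.1 or 1 added to RPKM, median-centred or quantile-normalized libraries, no trend, only the groups compared, voom, and each library left out.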

Additional observations from a re-analysis of the deposited data

Results flagged for a closer look

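The depth of the CENPA knockdown differed between the hairpins. CENPA was lower with shCENPA2 than with shCENPA1 by a log2 fold change of -0.98 ± 0.16 (SE, limma adjusted p = 0.0209), and both shCENPA2 libraries lay below both shCENPA1 libraries.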

How the results depend on the processing

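Across the 19 alternatives, 7 to 10 of the licensing genes were called lower with shCENPA1 and 9 or 10 with shCENPA2, and no fold change against shNT turned. Between the hairpins, the count of 0 became 4 with lanes kept as samples with an estimated correlation, 1 with lane 7 only and 1 with median-centred libraries. The count past 2-fold with shCENPA1 went from 5 to 2 with 1 added to RPKM, which shrinks changes of low values, and the medians then were -0.86 and -1.14. With each library left out, the shCENPA1 median ran from -1.02 to -0.99, the shCENPA2 median from -1.29 to -1.15, the 2-fold counts from 4 to 6 and from 8 to 9, the count between hairpins from 0 to 2, and the listed genes called with both from 38 to 49. A lone library is then assumed to vary like the others. The only reversals were between hairpins with a library left out, where MCM4 ran from -0.11 to 0.02 and CDT1 from -0.24 to 0.13. The cause was not tested. Library numbers did not pair the libraries (correlations of deviations -0.06, -0.10 and -0.15), and the replicate block gave 9, 10 and 0 calls and 47 listed genes. Without a trend in the variance, MCM7 with shCENPA1 (adjusted p = 0.0511) and CDT1 with shCENPA2 (adjusted p = 0.0604) lost their calls. The 2 libraries per group limit the precision.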
